A study of Arabidopsis thaliana with 7 samples.

Results

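The 10 Arabidopsis genes described here encode the cytosolic translation elongation factors eEF1 and eEF2. The rule names them by locus and uses no measured value, although earlier results of these data were known when it was written. They comprise 4 genes for eEF1A, the eEF2 gene LOS1 (AT1G56070), and 5 genes for subunits of eEF1B. All 10 were found among the 27655 genes of the count tables. A second gene for the gamma subunit of eEF1B (AT1G57720) and an eEF2-like gene (AT3G12915) lay outside that set and are given only for comparison.

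Elongation factors carry the ribosome along the mRNA once initiation is complete. eEF1A is a GTPase that brings each aminoacyl-tRNA to the ribosome, eEF1B exchanges its GDP for GTP so that it can be used again, and eEF2 is the GTPase that moves the ribosome on by a codon after each peptide bond. eEF1A and eEF2 are among the most abundant proteins of growing plant cells, and LOS1 was named in Arabidopsis for a mutant with altered responses to low temperature.

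Polyadenylated RNA from whole 18-day-old seedlings, kept at 23°C under 16 h light and 8 h dark cycles, was sequenced in 7 libraries, each from 4 µg of total RNA. The groups were wild type (WT, n = 2) and the mutants hot3-2 (n = 3) and hot3-3 (n = 2), all in the Columbia (Col-0) ecotype. Each mutant is a single T-DNA insertion line in HOT3, which encodes the translation initiation factor eIF5B1, the GTPase that joins the ribosomal subunits just before elongation begins. The comparison asked how transcripts of the factors that act in the next step differed when this initiation factor was disrupted.

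Total counts ranged from 14090881 to 34696683 per library, and replicates correlated at r of 0.985 or more on the log2 scale across genes. HOT3 (AT1G76810) itself was counted 2773 and 3516 times in the WT libraries, 1807, 1363 and 1772 times in those of hot3-2, and 4059 and 9494 times in those of hot3-3. Scaled to library size (CPM), this was 170 ± 0.86 (SD, n = 2 libraries) in WT, 89.2 ± 10.2 (n = 3) in hot3-2, and 195 and 271 in the libraries labelled hot3-3. The log2 fold change of 0.46 in hot3-3 did not pass (adjusted p 0.032, edgeR quasi-likelihood F test), so the whole gene was not lower there and gave no check of that label, since an insertion need not lower its count. The authors report from their RNA sequencing that reads were lacking close to the insertion in either mutant. A count per gene cannot show this. Nothing in the labels says that the libraries came from separate cultures, so the p-values measure the spread between these libraries, which may be technical. In whole seedlings, fewer cells of a type and less RNA per cell cannot be told apart. The summed level of 4 mature leaf markers was 19164 to 21253 CPM in WT, 15689 to 16556 in hot3-2 and 14518 to 15327 in hot3-3. That of 4 markers of dividing cells was 64.3 to 72.4, 78.6 to 84.1 and 85.02 to 91.4 CPM, and that of 7 root markers was 44.9 to 45.6, 47.9 to 50.7 and 47.8 to 50.9 CPM, in the same order. That of 5 flower markers was 3.23 to 3.69, 2.77 to 3.74 and 1.35 to 1.40 CPM. Markers within a list did not all follow its sum. CYCB1;1 (AT4G37490) went from 6.12 CPM in WT to 20.8 and 32.2 in hot3-2 and hot3-3. The cyclin-dependent kinase gene AT3G54180, of the same list, also had higher means in both mutants. The other markers of dividing cells had lower means. KNOLLE (AT1G08560) went from 32.4 to 29.9 and 24.5 and CDC20.1 (AT4G33270) from 23.5 to 20.9 and 20.5. Of the leaf markers, LHCB1.1 (AT1G29920) went from a WT mean of 1085 CPM, with libraries far apart at 664 and 1507, to 2286 and 2299 CPM. The other 3 leaf markers had lower means in both mutants. No marker was at 0 in every library, and the flower marker AP1 was at 0 in some. The part of these markers in the results below was not tested.

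Counts of 9 of the 10 elongation factor genes were raised together in both mutants. The count of the other, AT5G12110, was lower but could not be separated from that of a neighbour, as described below. The 10 genes took 0.418% and 0.384% of all counts in the WT libraries. They took 0.846%, 0.839% and 0.845% of the hot3-2 libraries, and 0.938% and 0.908% of those of hot3-3. The mean share was 0.401% ± 0.0245 (SD, n = 2 libraries) in WT, 0.843% ± 0.0037 (SD, n = 3 libraries) in hot3-2 and 0.923% ± 0.0213 (SD, n = 2 libraries) in hot3-3. All mutant libraries lay above both WT libraries. The share of eEF1A was 0.187%, 0.445% and 0.488% in WT, hot3-2 and hot3-3, that of eEF2 0.0956%, 0.190% and 0.208%, and that of the eEF1B genes 0.118%, 0.208% and 0.226%.

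**Figure D1:**
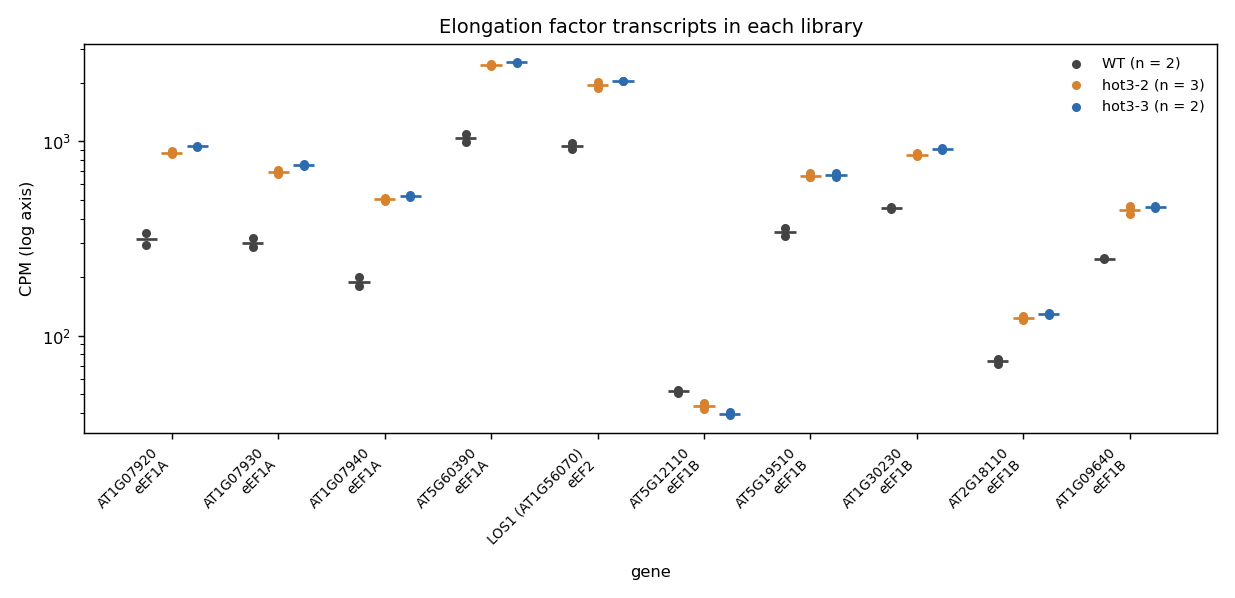
Level of each elongation factor gene in every library, as CPM on a log axis, with 1 point per library and a bar at the mean of each genotype. The mutant points lie above the WT points for 9 genes and below them for AT5G12110.

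A gene was called when its adjusted p was below 0.01 and its log2 fold change was at least 1 in size in edgeR's quasi-likelihood test. By this rule 5 of the 10 genes were higher in hot3-2, where 7.8% of the 20795 genes tested were higher, and 6 of 10 were higher in hot3-3, where 9.63% were. None was called lower, where 807 of all tested genes were called lower in hot3-2 and 1020 in hot3-3. Without the fold limit, 9 of 10 were higher in each mutant at an adjusted p below 0.01 in the same test, against 18.8% of all tested genes in hot3-2 and 19.5% in hot3-3. The median log2 fold change of the 10 was 1.002 in hot3-2 and 1.06 in hot3-3, and that of all tested genes was 0.0013 and 0.011. In 9 genes every mutant library exceeded every WT library, which was so for 29.6% of all tested genes. In the other gene, AT5G12110, every mutant library was below every WT library, which was so for 27.3%. Both mutants were compared with the same WT libraries, so the comparisons are not independent of each other.

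**Figure D2:**
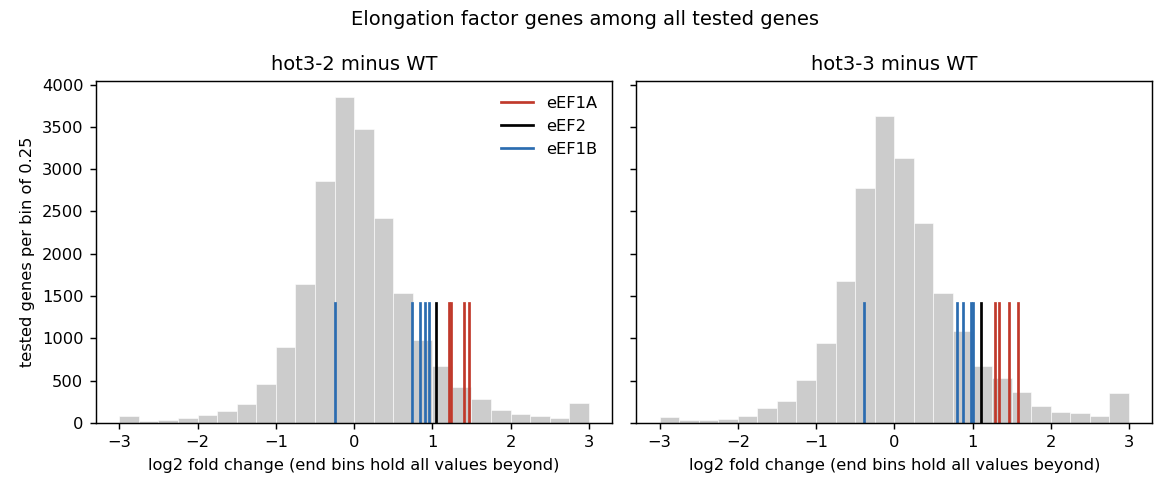
Distribution of the log2 fold change over the 20795 tested genes (grey, bins of 0.25, end bins holding all values beyond) with the 10 elongation factor genes as vertical lines, for each mutant against WT. The 4 eEF1A lines lie furthest to the right of the 10, next to eEF2, and 1 eEF1B line lies below 0.

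The 4 eEF1A genes encode the same protein. Of these, 3 lie side by side on chromosome 1 (TAIR10.1). AT1G07920 extends from 2454771 to 2457321 and AT1G07930 from 2458184 to 2460817 on the plus strand, and AT1G07940 from 2462949 to 2465545 on the minus strand. The other gene, AT5G60390, lies on chromosome 5 from 24288596 to 24291020 on the plus strand. Each has 1350 coding bases. The tandem genes differed from each other at 6 to 16 of these bases and AT5G60390 differed from them at 82 to 84, and 0 codons changed the residue. How far a read can tell the copies apart is shown by coding bases 31 to 120 of each gene, read from RefSeq TAIR10.1, with the 12 positions in this stretch at which the 4 genes are not all alike in capitals. In the whole coding sequence 90 positions were of this kind.
AT1G07920: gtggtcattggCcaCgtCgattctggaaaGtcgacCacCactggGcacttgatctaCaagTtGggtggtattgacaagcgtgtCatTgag
AT1G07930: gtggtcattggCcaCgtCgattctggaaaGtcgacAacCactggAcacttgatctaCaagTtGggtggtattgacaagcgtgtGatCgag
AT1G07940: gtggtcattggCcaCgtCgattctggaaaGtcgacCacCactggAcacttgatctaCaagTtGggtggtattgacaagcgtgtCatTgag
AT5G60390: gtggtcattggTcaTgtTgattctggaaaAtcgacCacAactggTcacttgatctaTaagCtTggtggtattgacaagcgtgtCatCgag

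Pairs of reads that mapped to more than 1 place had been left out of the counts, so these differences set which pairs of the eEF1A genes could be counted. Of all windows of 150 bases, the read length, in the annotated transcripts, 54.2% of those of AT1G07920, 19.9% of AT1G07930 and 42.0% of AT1G07940 were also present in another of the tandem genes. No window of AT5G60390 or of LOS1 was shared with another gene. Counts of the tandem genes can therefore be too low, and how reads were split between them is uncertain.

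AT5G60390 had the highest level per length of the 10 genes by counts as deposited. It was at 1098 and 992 CPM in WT, at 2491, 2458 and 2482 CPM in hot3-2, and at 2574 and 2533 CPM in hot3-3. The WT libraries lay well apart from all mutant libraries, and the hot3-3 libraries were a little above those of hot3-2. AT5G60390 rose by a log2 fold change of 1.24 ± 0.073 (SE) in hot3-2 and 1.29 ± 0.078 in hot3-3 (adjusted p 3.9e-06 and 3.4e-06, edgeR quasi-likelihood F test). By mean CPM, which does not allow for length, the gene ranked 99 among all genes in WT, 14 in hot3-2 and 11 in hot3-3.

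AT1G07920 showed the largest change of the 10 genes. It was at 338 and 293 CPM in WT, at 880, 859 and 887 CPM in hot3-2, and at 950.3 and 933 CPM in hot3-3. The groups did not overlap. It rose by a log2 fold change of 1.47 ± 0.081 (SE) in hot3-2 and 1.58 ± 0.087 in hot3-3, which is 2.77-fold and 2.98-fold (adjusted p 2.9e-06 and 2.4e-06, edgeR quasi-likelihood F test).

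AT1G07930 was at 317 and 285 CPM in WT, at 709, 681 and 693 CPM in hot3-2, and at 764 and 751 CPM in hot3-3. AT1G07940, the member of the cluster with the lowest count, was at 199 and 180 CPM in WT, at 509, 492 and 506 CPM in hot3-2, and at 531 and 516 CPM in hot3-3. In both genes WT was lowest and hot3-3 highest in every library. The log2 fold changes of AT1G07930 were 1.21 ± 0.075 (SE) and 1.33 ± 0.080, and those of AT1G07940 were 1.41 ± 0.076 and 1.47 ± 0.081, in hot3-2 and hot3-3. All passed the rule, with adjusted p from 2.4e-06 to 4.6e-06 in edgeR's quasi-likelihood test.

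The sum over the 4 genes depends less on how reads were split between them. Its libraries gave 1952 and 1750 CPM for WT, 4587, 4491 and 4568 CPM for hot3-2, and 4820 and 4733 CPM for hot3-3. The mean was 1851 ± 143 CPM (SD, n = 2 libraries) in WT, 4549 ± 50.8 CPM (SD, n = 3 libraries) in hot3-2 and 4776 ± 61.5 CPM (SD, n = 2 libraries) in hot3-3. Pairs shared between tandem genes are missing from the sum too, which gives AT5G60390 more weight in it. By the pairs that were counted, eEF1A was 2.46-fold higher in hot3-2 (log2 fold change 1.30 ± 0.075, SE) and 2.58-fold higher in hot3-3 (1.37 ± 0.080). By edgeR's quasi-likelihood test these had adjusted p of 3.7e-06 and 3.1e-06, and the sum was called in each of the 13 alternative settings.

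Among the copies, AT5G60390 lost some share to the tandem genes. The ratio of AT5G60390 to the 3 tandem genes was 1.29 and 1.31 in the WT libraries. The hot3-2 libraries gave 1.19, 1.21 and 1.19, and either library of hot3-3 gave 1.15. It was lower in every mutant library. The mean log2 ratio differed by -0.14 between the 5 mutant and the 2 WT libraries, with p = 0.095 in a two-sided exact permutation test, which is the smallest p this design allows, and 0.29 after Benjamini-Hochberg adjustment over 12 such comparisons. The test could not reach 0.05 for any of them. AT5G60390 made up 56.3% and 56.7% of eEF1A counts in WT and 53.4% to 54.7% in the mutants. The tandem genes did not all gain. AT1G07920 went from 17.3% and 16.8% in WT to 19.1% to 19.7% in the mutants. AT1G07940 went from 10.2% and 10.3% to 10.9% to 11.1%. AT1G07930 fell from 16.2% and 16.3% to 15.2% to 15.9%. The split between the tandem genes carries the uncertainty of shared reads given above.

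**Figure D3:**
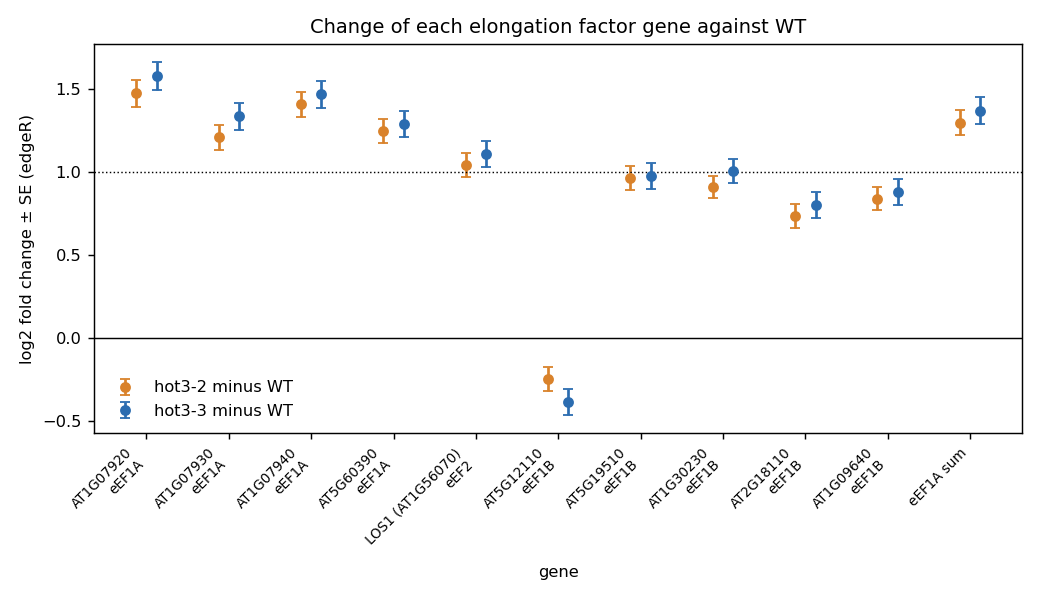
Log2 fold change of each gene and of the eEF1A sum in hot3-2 and hot3-3 against WT, as points with the standard error from edgeR, and the fold limit of the calls as a dotted line. The eEF1A genes lie between 1.21 and 1.58, LOS1 at 1.04 and 1.11, and 4 of the eEF1B genes between 0.74 and 1.01, while AT5G12110 lies below 0.

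LOS1, the eEF2 gene (chromosome 1, 20967652 to 20971742, minus strand), has 2532 coding bases and 3 exons. It was at 978 and 912 CPM in WT, at 2012, 1872 and 1951 CPM in hot3-2, and at 2039 and 2035 CPM in hot3-3. The hot3-2 libraries lay just below those of hot3-3, and all were far above WT. LOS1 rose by a log2 fold change of 1.04 ± 0.072 (SE) in hot3-2 and 1.11 ± 0.078 in hot3-3 (adjusted p 7.1e-06 and 6.2e-06, edgeR quasi-likelihood F test). The hot3-2 value lay so near the fold limit that it fell under it with scaling by total counts alone (0.99), without WT replicate 2 (0.96) and without hot3-2 replicate 1 (0.99). The eEF2-like gene AT3G12915 was at 5.46 ± 0.022 CPM (SD, n = 2 libraries) in WT, 4.77 ± 0.70 CPM (SD, n = 3 libraries) in hot3-2 and 6.34 ± 0.97 CPM (SD, n = 2 libraries) in hot3-3. Its log2 fold changes of -0.20 and 0.21 did not pass (adjusted p 0.37 and 0.38, edgeR quasi-likelihood F test). AT3G00300, on the other strand, overlaps AT3G12915 over 2512 of its 2872 exonic bases. The count of AT3G12915 may therefore hold pairs of both genes, and the change of its own transcript was not established.

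The eEF1B complex holds nucleotide exchange subunits of more than one kind and a gamma subunit that holds the complex together. AT1G30230 (eEF-1Bb1) and AT2G18110 encode exchange subunits of one kind, and AT5G19510 and AT5G12110 those of the other. AT1G30230 lies on chromosome 1 from 10638878 to 10640941 on the plus strand. It was at 460.3 and 449 CPM in WT, at 867, 845 and 855 CPM in hot3-2, and at 921 and 906 CPM in hot3-3. The 3 genotypes did not overlap. The log2 fold change was 0.91 ± 0.066 (SE) in hot3-2 and 1.01 ± 0.071 in hot3-3 (adjusted p 8.3e-06 and 6.3e-06, edgeR quasi-likelihood F test). It was called in hot3-3 alone, and there it fell under the fold limit in 6 of 13 alternative settings (range 0.96 to 1.02), among them leaving out WT replicate 2, hot3-2 replicate 1 or hot3-3 replicate 1.

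AT2G18110 (chromosome 2, 7872201 to 7874010, plus strand) was at 71.7 and 75.7 CPM in WT, at 127, 120 and 121 CPM in hot3-2, and at 130 and 127 CPM in hot3-3. Its change on the log2 scale was 0.74 ± 0.073 (SE) and 0.80 ± 0.078 (adjusted p 4.6e-05 and 3.6e-05, edgeR quasi-likelihood F test), under the fold limit in both mutants. The ratio of AT1G30230 to AT2G18110 was 6.42 and 5.93 in WT and 6.84 to 7.11 in the mutants. The mean log2 ratio was higher by 0.19 in the mutants, with the same exact permutation p of 0.095.

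The gamma subunit gene AT1G09640 (chromosome 1, 3119739 to 3122542, plus strand) was at 250 and 247 CPM in WT, at 464, 424 and 446 CPM in hot3-2, and at 451 and 463 CPM in hot3-3. The mutants overlapped each other and lay above WT. The change on the log2 scale was 0.84 ± 0.072 (SE) and 0.88 ± 0.077 (adjusted p 2.0e-05 and 1.9e-05, edgeR quasi-likelihood F test), under the fold limit. The second gamma gene, AT1G57720, had log2 fold changes of 0.73 ± 0.068 and 0.74 ± 0.073 (adjusted p 3.2e-05 and 3.7e-05, edgeR quasi-likelihood F test), and went from 292 ± 1.74 CPM (SD, n = 2 libraries) in WT to 484 ± 15.0 CPM (SD, n = 3 libraries) in hot3-2 and 489 ± 1.30 CPM (SD, n = 2 libraries) in hot3-3. The ratio of the first to the second was 0.852 and 0.850 in WT and 0.903 to 0.946 in the mutants, a difference of 0.12 in log2 ratio with an exact permutation p of 0.095.

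AT5G19510 (chromosome 5, 6581658 to 6583248, minus strand) was at 356 and 327 CPM in WT, at 687, 652 and 659 CPM in hot3-2, and at 656 and 688 CPM in hot3-3. Its mutant libraries overlapped each other and lay above WT. The log2 fold change was 0.96 ± 0.074 (SE) in hot3-2 and 0.97 ± 0.080 in hot3-3 (adjusted p 1.1e-05 and 1.3e-05, edgeR quasi-likelihood F test). It therefore missed the fold limit narrowly in both, and passed it without WT replicate 1 (1.03 and 1.04) and, in hot3-3, without hot3-3 replicate 1 (1.01). The gene overlaps AT5G19500 on the other strand by 288 of its 982 exonic bases. With every count of that neighbour subtracted, the most that shared pairs could add, AT5G19510 was at 213 ± 6.10 CPM (SD, n = 2 libraries) in WT, 450.1 ± 10.5 CPM (SD, n = 3 libraries) in hot3-2 and 457 ± 21.7 CPM (SD, n = 2 libraries) in hot3-3, and its log2 fold changes were 1.08 and 1.099.

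AT5G12110 (chromosome 5, 3914468 to 3916896, plus strand), annotated as elongation factor 1-beta 1, was the only gene of the 10 with lower values in the mutants. It was at 52.7 and 50.6 CPM in WT, at 44.9, 41.9 and 43.5 CPM in hot3-2, and at 40.2 and 38.8 CPM in hot3-3. The 3 genotypes did not overlap, with WT highest and hot3-3 lowest. Against WT the log2 fold change was -0.25 ± 0.073 (SE) in hot3-2 and -0.39 ± 0.079 in hot3-3 (adjusted p 0.019 and 0.0031, edgeR quasi-likelihood F test). Neither passed the fold limit.

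The count of AT5G12110 could not be separated from that of its neighbour. Its last exon overlaps AT5G12120, a gene on the other strand, over 1221 of its 1866 exonic bases (65.4%), although over only 57 of its 687 coding bases. The neighbour had 159% to 176% of its count in the 7 libraries, and its own log2 fold changes were -0.17 ± 0.076 (SE) and -0.30 ± 0.084 (adjusted p 0.085 and 0.015, edgeR quasi-likelihood F test). Whether strand had been used in counting was read from 254 genes whose exons lie wholly within those of a gene on the other strand. Of these inner genes 246 had counts, none of the 254 exceeded its outer gene in any library, and 17 had 90% to 100% of its count with over 700 counts of their own over the 7 libraries. Pairs were therefore taken to have been counted for both genes regardless of strand. The values of AT5G12110 therefore hold pairs of both genes in unknown shares, and its direction was not established for its own transcript. AT5G60390 and AT1G09640 also overlap a gene on the other strand, by 28 and 77 bases, and those neighbours had at most 2.03% and 6.57% of their counts.

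**Figure D4:**
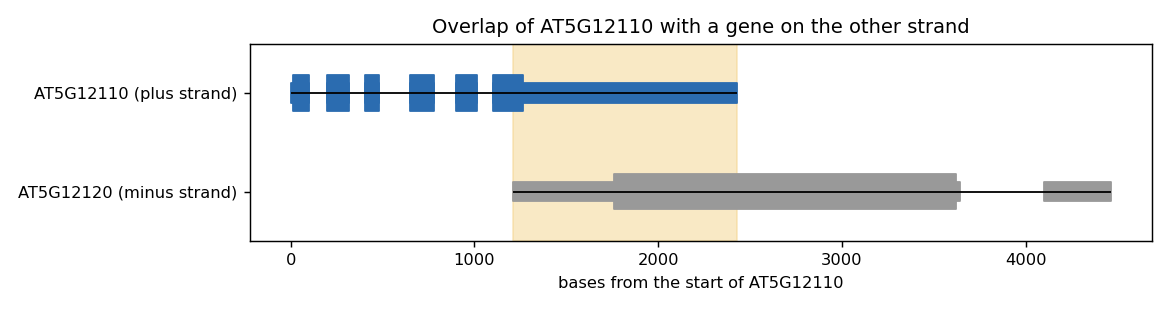
Exons of AT5G12110 and of AT5G12120 in bases from the start of AT5G12110, with coding parts as taller boxes and the shared stretch shaded. The shared stretch covers 1221 exonic bases, among them all of AT5G12110 that follows its coding part.

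The ratio of AT5G12110 to AT5G19510, its partner of the same kind, was 0.148 and 0.155 in the WT libraries. It came to 0.0654, 0.0642 and 0.0660 in those of hot3-2 and to 0.0614 and 0.0564 in those of hot3-3. The mean log2 ratio was lower by 1.27 in the mutants, the widest of the 4 ratios examined, with an exact permutation p of 0.095 and 0.29 after adjustment. This ratio carries the uncertainty of both overlaps.

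**Figure D5:**
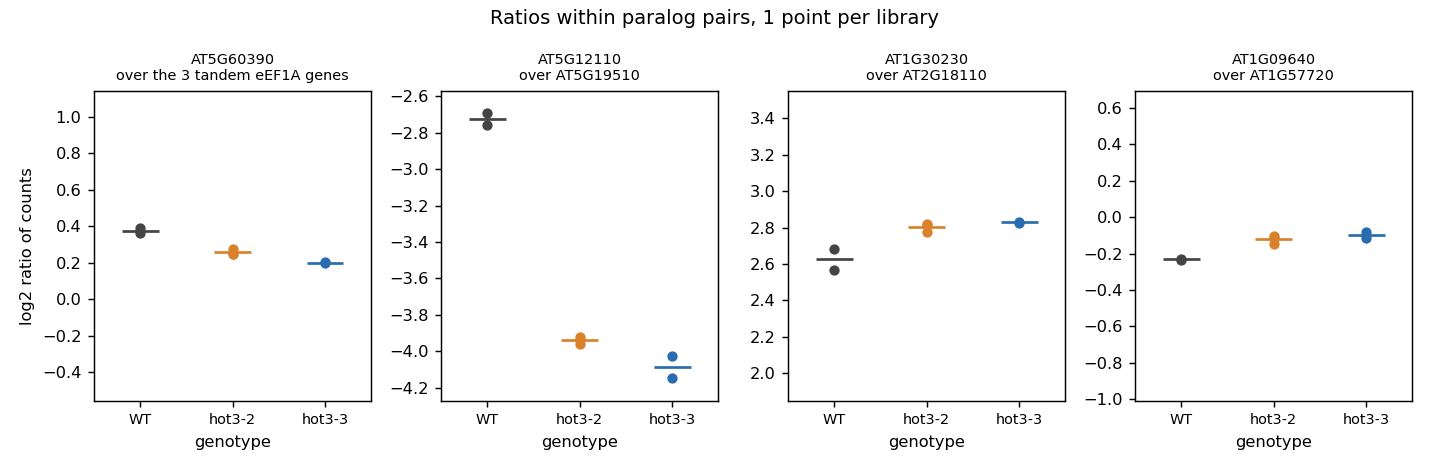
Log2 ratio of counts within 4 pairs of related genes, with 1 point per library and a bar at the mean of each genotype. All vertical axes span the same range of 1.7, so the difference of 1.27 for AT5G12110 over AT5G19510 can be compared with those of 0.12 to 0.19 in size for the others.

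Per length of transcript, the order of the 10 genes by counts as deposited was the same in all 3 genotypes. AT5G60390 led, at 450 ± 32.1 CPM per kb (SD, n = 2 libraries) in WT, 1065 ± 7.22 (SD, n = 3 libraries) in hot3-2 and 1098 ± 12.4 (SD, n = 2 libraries) in hot3-3. AT1G30230 followed at 365, 686 and 733 CPM per kb, AT5G19510 at 348, 678 and 684, and LOS1 at 249, 513 and 538. Then came AT1G07920, AT1G07930, AT1G09640, AT1G07940 and AT2G18110, and AT5G12110 was last at 27.7, 23.3 and 21.2 CPM per kb. AT1G30230 and AT5G19510 overlapped in WT and in hot3-2, as did AT1G07920 and AT1G07930 in WT, and no other neighbours in this order did. The levels of the tandem genes in this order can be too low, for the shared windows given above, so their places below AT5G60390 were not settled. That of AT5G19510 can be too high, for its overlap. With all counts of its neighbour subtracted AT5G19510 was at 217, 458 and 465 CPM per kb, below LOS1 in all 3 genotypes and below AT1G07920 (170, 471 and 507) in the mutants only, so its place in the order, and whether the order was the same in all 3, was not settled. The place of AT5G12110 carries the same limit.

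Between the alleles the 10 genes lay close together. None of the 10 genes was called between hot3-3 and hot3-2, where 1.21% of all tested genes were called in either direction. Their smallest unadjusted p was 0.089, that of AT5G12110, in edgeR's quasi-likelihood test. The adjusted p ranged from 0.27 to 0.94 in edgeR's quasi-likelihood test. The log2 differences lay between -0.14 and 0.13, the highest being that of AT1G07930 at 0.13 ± 0.072 (SE). Every hot3-3 library was above every hot3-2 library in 7 of the 10 genes, which was so for 22.6% of all tested genes. A p that misses the threshold does not show that the alleles act alike.

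Promoters of the 10 genes were searched for sequence elements known from plant genes of the translation machinery, the telo box (AAACCCTA) and site II (TGGGCC or TGGGCT), on both strands and over the 250 bases before each annotated start. The telo box was found in AT5G60390 and LOS1, which is 2 of 10 against 4.49% of 27443 promoters. Site II was found in 6 of 10 against 19.2%. Both were found in 2 of 10 against 1.36%. Site II was present in AT1G07940, AT5G60390, LOS1, AT5G19510, AT1G30230 and AT2G18110, and neither element in AT1G07920, AT1G07930, AT1G09640 and AT5G12110. A match is a description of the sequence and not of binding, and the absence of these letters says nothing of a factor. The promoters of LOS1 and AT5G60390, which hold both elements, that of AT1G30230, which holds 3 copies of site II, and that of AT5G12110, which holds neither, are printed from RefSeq TAIR10.1, from 5′ to 3′ on the strand of the gene, with matches in capitals.
LOS1 (chr1:20971743-20971992, minus strand): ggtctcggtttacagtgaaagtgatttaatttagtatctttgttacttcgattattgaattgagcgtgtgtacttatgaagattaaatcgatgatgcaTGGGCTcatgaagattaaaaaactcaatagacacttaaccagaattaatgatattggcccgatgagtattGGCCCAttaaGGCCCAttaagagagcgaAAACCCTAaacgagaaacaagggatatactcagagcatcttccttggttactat
AT5G60390 (chr5:24288346-24288595, plus strand): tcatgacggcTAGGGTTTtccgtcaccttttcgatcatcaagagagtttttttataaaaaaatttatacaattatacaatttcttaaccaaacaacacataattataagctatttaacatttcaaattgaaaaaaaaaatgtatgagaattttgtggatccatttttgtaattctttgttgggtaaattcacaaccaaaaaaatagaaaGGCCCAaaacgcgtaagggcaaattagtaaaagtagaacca
AT1G30230 (chr1:10638628-10638877, plus strand): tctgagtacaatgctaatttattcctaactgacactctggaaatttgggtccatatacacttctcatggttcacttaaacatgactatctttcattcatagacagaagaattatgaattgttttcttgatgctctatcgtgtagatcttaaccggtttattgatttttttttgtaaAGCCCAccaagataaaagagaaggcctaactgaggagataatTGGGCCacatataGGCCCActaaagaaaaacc
AT5G12110 (chr5:3914218-3914467, plus strand): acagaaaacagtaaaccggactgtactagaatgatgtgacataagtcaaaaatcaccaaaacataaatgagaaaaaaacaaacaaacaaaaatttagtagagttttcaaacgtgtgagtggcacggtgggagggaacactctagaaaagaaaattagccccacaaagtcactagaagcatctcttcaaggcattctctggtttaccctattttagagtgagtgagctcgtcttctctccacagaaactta
In LOS1 the telo box began 54 bases before the annotated start and site II 152, 82 and 72 bases before it. In AT5G60390 the telo box lay 240 and site II 41 bases before the start.

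Likeness over the libraries was described by correlation. Pearson's r of log2 CPM with LOS1 over the 7 libraries was 0.992 to 0.999 for the other genes apart from AT5G12110, at -0.90. These values are set by the gap between WT and the mutants that the genes share and do not describe variation within a genotype. In WT, for example, AT2G18110 was lower in the library in which LOS1 was higher. In all, 18.5% of the 15492 genes with a mean of at least 5 CPM had an r over 0.9 with LOS1. The 5 genes outside the set most like LOS1 were AT3G09200, AT2G19740, AT2G34480 and AT4G12600, which encode proteins of ribosomal protein families, and AT4G02930, a GTP-binding elongation factor of the Tu family, with r of 0.9996 to 0.9997. The most like the eEF1A sum were AT1G33140 (PGY2), of the ribosomal protein L6 family, AT5G04600, an RNA-binding protein, AT2G05915, of uncharacterized product, which lies within the exons of AT2G05914 on the other strand and may hold its pairs, AT4G29410, of a ribosomal protein family, and AT3G14390, a pyridoxal-dependent decarboxylase, with r of 0.9995 to 0.9999.

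Other factors of elongation, termination and recycling in the cytosol had smaller median changes. Of 18 such genes 17 were tested. Of all tested genes 7.8% and 9.63% were called higher in hot3-2 and hot3-3, and 807 and 1020 genes lower. Of the 17, 1 was called higher and 0 lower in each mutant. That gene, AT5G62030, acts in the synthesis of diphthamide, the modified histidine of eEF2, and had log2 fold changes of 1.099 ± 0.085 (SE) and 1.07 ± 0.090 (adjusted p 1.1e-05 and 1.6e-05, edgeR quasi-likelihood F test). At an adjusted p below 0.05 with no fold limit in the same test, 13 of the 17 were higher and 0 lower in each mutant, beside 5454 and 5612 higher of all 20795 genes, and the medians were 0.46 and 0.47 on the log2 scale. Among the factors of organelles, 1 of 10 was called higher and 0 lower in each mutant, beside the same 7.8% and 9.63%, with medians of 0.02 and 0.04. At an adjusted p below 0.05 with no fold limit in edgeR's test, hot3-2 had 4 higher and 3 lower, and hot3-3 had 4 of each. All 20795 genes gave 5454 higher and 4814 lower in hot3-2, and 5612 and 5004 in hot3-3. The medians near 0 pooled 2 groups that differed in direction. Those higher were all mitochondrial factors, AT4G02930, AT1G45332, AT2G45030 and AT4G11120 (0.53 to 1.73 on the log2 scale). Those lower were all plastid factors. In hot3-3 the lower ones included AT5G08650, a plastid LepA (-0.70 and -0.96 on the log2 scale), and AT1G62750, a plastid EF-G (-0.38 and -0.72). The plastid EF-Tu (AT4G20360) and the mitochondrial LepA (AT5G39900) passed in neither mutant. The gene called higher was AT4G02930, the mitochondrial counterpart of eEF1A, at 61.7 CPM in WT, 191 in hot3-2 and 204 in hot3-3, with log2 fold changes of 1.63 ± 0.086 (SE) and 1.73 ± 0.091 (adjusted p 2.4e-06 and 2.0e-06, edgeR quasi-likelihood F test). Aminoacyl-tRNA synthetases charge tRNAs with amino acids. Of 64 genes annotated as such enzymes, cytosolic or organellar, or as holding a related domain, 53 were tested and 6 were called higher and 0 lower in each mutant, a share near the 7.8% and 9.63% of all tested genes, with medians of 0.19 and 0.24. At an adjusted p below 0.05 with no fold limit in edgeR's test, hot3-2 had 26 higher and 8 lower, and hot3-3 had 25 and 11. Over all 20795 genes the same limit gave 5454 and 4814 in hot3-2, and 5612 and 5004 in hot3-3. Of those called in both, AT1G17960 (4.94 and 5.34 on the log2 scale), AT3G42723 (3.29 and 4.47, below 1.5 CPM in every library), AT2G33840 (1.45 and 1.72), AT3G11710 (1.18 and 1.38) and AT5G27470 (1.16 and 1.26) had the largest mean changes.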

How the data were processed

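Counts of read pairs per gene and a gene length column (bases) were used as deposited, 1 table for each library. To make these counts, the authors trimmed adapters from pairs of 150 bases, aligned them to the TAIR10 genome with STAR, and had featureCounts count only pairs that mapped properly to 1 place. The submitters' processing notes name cutadapt 4.2, STAR 2.7.10b and featureCounts 2.0.3. The strand setting and annotation release are not given in the sources used here. RefSeq's TAIR10.1 annotation held 27445 of the genes, 99.4% of them with the deposited exonic length, all 10 members included.

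Groups came from the labels. Genes were filtered with filterByExpr (minimum count 10), which left 20795, and libraries were scaled by TMM. A single model of genotype was fitted to all 7 with edgeR 4.0.16 under R 4.3.3, and the p of each quasi-likelihood F test was adjusted after Benjamini and Hochberg across the 20795 genes. SE is the log2 fold change divided by the square root of F. CPM is edgeR's scaled level, the count over the TMM-scaled library size. The eEF1A genes were also fitted as 1 summed row. Ratios were compared with an exact permutation test. The fit was tested on simulated data in which 200 genes changed by 1.5 or 2 in size on the log2 scale. It called 94% to 97% of them, with 5 false calls for hot3-2 and 2 for hot3-3. Smaller changes were not simulated, so this says nothing of calls near the fold limit.

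The alternatives were DESeq2 size factors or total counts for scaling, no low-count filter, the replicate number as a block, only the 2 groups compared, DESeq2 1.42.0, an adjusted p below 0.05 without fold limit, each library left out, and, chosen after seeing the data, AT5G19510 with its neighbour's counts subtracted. The 10 members, the gene lists and the tests were chosen with earlier results of these data known. All members were named, along with at most 5 called genes of each list by mean change, AT1G57720, AT3G12915, and the 5 genes most correlated with LOS1 and with the eEF1A sum.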

Additional observations from a re-analysis of the deposited data

How the results depend on the processing

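All eEF1A genes and their sum kept their direction and their call in both mutants under each of the 13 alternatives run, and the sum ranged from 1.19 to 1.38 (log2) in hot3-2 and from 1.27 to 1.45 in hot3-3. No member was called between the alleles under any alternative. With an adjusted p below 0.05 and no fold limit in edgeR's test, 9 members were higher and 1 lower in each mutant, and over all genes 5454 were higher and 4814 lower in hot3-2, 5612 and 5004 in hot3-3, and 1010 and 927 in hot3-3 against hot3-2. Leaving out 1 library gave 4 to 6 members higher in hot3-2 and 5 to 7 in hot3-3. Between the alleles, 178 genes were higher and 73 lower. These became 279 and 128 with no filter, and 31 to 278 and 15 to 127 with 1 library left out. The lower count was 121 with the 2 groups alone and 122 with DESeq2. The difference of AT5G19510 between the alleles, 0.012, reached at most 0.077 over all alternatives. With 1 library left out it ranged from -0.023 (without hot3-3 replicate 2) to 0.045 (without hot3-3 replicate 1), and was -0.0032 without hot3-2 replicate 2. The causes were not tested.

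Same-numbered libraries deviated from their group means with r of 0.034 to 0.17, and differently numbered ones with r of -0.17 to 0.014. In groups of 2 libraries the deviations mirror each other, so these values are not independent. The same-numbered values were not all above 0.1, so the numbers were not taken as pairs, although a weak pairing was not excluded. With the replicate block, 96 genes were higher in hot3-3 than in hot3-2, and no call of a member changed. With 2 or 3 libraries per group no ratio test could pass 0.05, and the depth left every member at 586 counts or more in each library, so counting error limits them little.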
